A study of Mus musculus with 12 samples.

Results

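Glutamate receptors and their auxiliary subunits were followed as 32 genes, chosen by name, among the 55487 genes counted in this mouse Auts2 series. They are the 4 AMPA receptor genes Gria1 to Gria4, the 5 kainate receptor genes Grik1 to Grik5, the 7 NMDA receptor genes Grin1, Grin2a to Grin2d, Grin3a and Grin3b, the delta receptor gene Grid1, the 7 metabotropic receptor genes Grm2 to Grm8, and 2 groups of auxiliary subunits. The auxiliary subunits are Neto1 and Neto2, and the 6 transmembrane AMPA receptor regulatory proteins (TARPs) Cacng2, Cacng3, Cacng4, Cacng5, Cacng7 and Cacng8. Of the 32 genes, 30 had enough counts to be tested in every comparison. Grin3b, whose product forms glycine-responsive NMDA receptors, reached at most 9 counts in any library, and Grm6, the receptor of retinal ON bipolar cells, at most 1 count, so both were left untested.

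RNA was sequenced from 12 male mice in 4 groups of 3, all but the wild types bred from the floxed exon 7 allele Auts2tm1.1Dare. At postnatal day 0 (P0), forebrain came from Cmv-cre, Auts2-ex7 knockouts, in which Cre is active throughout the body, and from wild-type littermates labelled BL6. At postnatal day 14 (P14), hippocampus came from Nes-cre, Auts2-ex7 knockouts, in which Cre is active in neural progenitors and the cells they form, and from littermates labelled auts2-ex7-fl-het. The labels do not say whether these heterozygous controls carry Nes-cre, so a P14 difference is one against mice that may have lost 1 copy of the exon. Age, tissue, Cre line, control genotype and the library numbers in the labels all change between P0 and P14 and cannot be told apart.

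AMPA and kainate receptors are fast ion channels opened by glutamate, and NMDA receptors are slower, calcium-permeable channels that open when glutamate meets a depolarised membrane. Metabotropic receptors act through G proteins, those of group I mostly at postsynaptic sites and those of groups II and III mostly at presynaptic terminals or on glia. TARPs and Neto proteins bind the channels and alter their trafficking and gating, and in the developing forebrain the NMDA receptor changes its make-up as Grin2a and other late subunits are switched on.

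The depth was 11247150 to 16796797 counts in the P0 libraries and 16830720 to 23340621 in the P14 libraries. Auts2, the targeted gene, was examined first. At P0 it stood at 158, 134 and 154 CPM in the wild types (CPM is a gene's count scaled to the size of its library) and at 162, 179 and 160.4 CPM in the knockouts. At P14 it stood at 98.6, 100.5 and 112 CPM in the heterozygous controls and at 94.2, 78.7 and 73.7 CPM in the knockouts. Neither difference passed the test (log2 difference 0.16, adjusted p 0.362 at P0, and -0.30, adjusted p 0.111 at P14), and counts over the whole gene do not measure exon 7 itself. In the heterozygous controls against the P0 wild types, 8 of 8 markers of CA pyramidal neurons were called higher. So were 7 of 8 markers of dentate granule cells and 6 of 6 of oligodendrocytes. Of all genes, 32.3% were called higher and 31.7% lower in this comparison. Each marker of every list had counts in some library of each context, with Gbx2, a thalamic gene, at 0 to 2 counts in the P14 libraries and Spink8, a CA1 gene, at 0 to 7 counts in the P0 libraries.

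The promoters of 3 members that the genotype tests call are shown because sequence for them was held in the reference table (RefSeq, GRCm38.p6), which had entries for 21 of the 32 genes. Each run is the 250 bases before the RefSeq transcription start, 5′ to 3′ on the gene's strand. Gene positions given below come from GENCODE, where the starts of these genes differ. Capitals mark the GC box GGGCGG read on either strand. The Grik3 run lies at chr4:125490446-125490695 (plus strand), the Grm2 run at chr9:106656110-106656359 (minus strand) and the Grm3 run at chr5:9725353-9725602 (minus strand).
Grik3: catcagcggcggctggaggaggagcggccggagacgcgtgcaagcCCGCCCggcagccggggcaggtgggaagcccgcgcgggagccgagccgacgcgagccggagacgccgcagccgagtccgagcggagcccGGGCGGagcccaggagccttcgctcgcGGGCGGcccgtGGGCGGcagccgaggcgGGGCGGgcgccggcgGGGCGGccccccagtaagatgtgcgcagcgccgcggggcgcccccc
Grm2: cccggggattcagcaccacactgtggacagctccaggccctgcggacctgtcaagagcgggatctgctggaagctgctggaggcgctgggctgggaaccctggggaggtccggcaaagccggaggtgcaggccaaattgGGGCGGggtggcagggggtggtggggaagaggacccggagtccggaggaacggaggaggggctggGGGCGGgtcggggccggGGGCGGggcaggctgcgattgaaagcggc
Grm3: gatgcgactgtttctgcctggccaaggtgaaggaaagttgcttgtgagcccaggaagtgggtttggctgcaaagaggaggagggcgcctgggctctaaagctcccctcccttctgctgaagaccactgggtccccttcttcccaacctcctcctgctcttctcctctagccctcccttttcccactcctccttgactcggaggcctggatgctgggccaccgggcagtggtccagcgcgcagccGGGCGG
The Grik3 promoter held 6 GC boxes and had a GC content of 82%, the Grm2 promoter 3 boxes and 71.2%, and the Grm3 promoter 1 box and 62.4%, against a median GC content of 52.4% over 32851 promoters. The 21 members had 26 promoters in the table, of which 12 (46.2%) held a GC box, against 32.7% of all promoters of the same length. The cAMP response element TGACGTCA, searched on both strands, was in none of the 26 and in 1.55% of all promoters. The TATA motif TATAAA was in 1 of the 26 against 12.4% of all promoters, and the E-box CANNTG was in 14 (53.8%) against 66.2%. These matches describe letters in a window and were not tied to binding of any factor.

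In the P0 forebrain, 3 of the 30 members were called lower in the knockouts and none was called higher, against 0.909% of all 16176 genes called in either direction, 0.717% lower and 0.192% higher. DESeq2 called 5 members, all lower (Grin3a, Grm3, Grm5, Grm7 and Grin2d), and 2.36% of all genes. A call is an adjusted p under 0.05 over all genes tested. The 3 were the NMDA receptor gene Grin3a and the metabotropic receptor genes Grm5 and Grm3. In all, 26 of 30 members had a log2 difference below 0, with a median of -0.16 and a range from -0.73 to 0.19, while 49.9% of all genes lay above 0 and their median was -0.00. At an unadjusted p under 0.05 there were 12 members lower and 1 higher, where 9.17% of all genes were lower and 6.95% higher, 16.1% in all. Knockout and wild-type libraries did not overlap for 12 members, against 21.6% of all genes. In whole tissue, fewer cells of a type and less RNA per cell cannot be told apart.

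Among the NMDA receptor genes, Grin3a encodes the GluN3A subunit, which lowers the calcium permeability of juvenile receptors. Grin3a (ENSMUSG00000039579, chromosome 4, 49661611 to 49845744, minus strand, GRCm38) was at 156, 150.2 and 141 CPM in the wild types and at 99.4, 93.3 and 101 CPM in the knockouts. Every knockout library was below every wild-type library, with a gap wider than the spread within either group. The log2 difference was -0.61 with an SE of 0.08 (adjusted p 0.00566). All 6 NMDA receptor genes tested were below 0, with a median log2 difference of -0.27, but Grin3a alone among them was called. Grin2d, the GluN2D subunit of early circuits and interneurons, was at 39.0, 48.9 and 35.5 CPM in the wild types and 26.6, 26.1 and 35.4 CPM in the knockouts (log2 difference -0.48, SE 0.14, adjusted p 0.121). The highest knockout library and the lowest wild-type library of Grin2d all but touched. Grin2a, whose product shortens NMDA currents as circuits mature, was at 11.2, 10.98 and 12.04 against 8.36, 10.5 and 8.56 CPM (adjusted p 0.279). The obligatory subunit gene Grin1, and Grin2b and Grin2c, had log2 differences of -0.21, -0.18 and -0.02, each with overlapping groups. Exons of Grin1, Grin2b, Grin2c and Grin2d, and of Grm7 and Neto1 among others, overlap antisense genes, Grin1 over 1307 bp with Grin1os. Counts without strand cannot separate them. Summed per kilobase of exon, the NMDA receptor genes ranged from 36.1 to 39.2 CPM per kilobase in the wild types and from 28.7 to 30.4 in the knockouts.

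The metabotropic receptor genes had the lowest median log2 difference of the families with more than 1 gene tested, -0.46, and all 6 tested were below 0. Grm5 encodes the group I receptor mGluR5, which signals through Gq at postsynaptic sites and on young astrocytes. Grm5 (ENSMUSG00000049583, chromosome 7, 87584168 to 88134907, plus strand) was at 279, 241 and 234 CPM in the wild types and at 195, 191 and 162 CPM in the knockouts, with no overlap, and the log2 difference was -0.46 (SE 0.09, adjusted p 0.0390). Grm3 encodes mGluR3, a group II receptor coupled to Gi and found on astrocytes as well as neurons. Grm3 (ENSMUSG00000003974, chromosome 5, 9485541 to 9725170, minus strand) was at 50.6, 49.5 and 45.2 CPM in the wild types and at 29.9, 36.0 and 22.2 CPM in the knockouts. The targeted gene Auts2 is on the same chromosome, at 131437333 to 132543344. Any part of this shared chromosome in the Grm3 difference was not tested. The Grm3 knockouts spread more than the wild types without reaching them. The log2 difference was -0.73 (SE 0.15, adjusted p 0.0491), just inside the threshold. Grm7, a group III presynaptic receptor, lay just outside it at 39.1, 37.2 and 37.1 against 25.5, 25.4 and 31.9 CPM (log2 difference -0.46, SE 0.10, adjusted p 0.0538). Grm7 was called in 6 of 11 other settings, among them the term for the library number series (adjusted p 0.0247), and in 1 of 6 fits without 1 library. Grm8, another group III receptor, was at 10.3, 10.7 and 11.5 against 6.41, 8.39 and 8.38 CPM (log2 difference -0.50, adjusted p 0.132). Both Grm7 and Grm8 had separated groups. Grm4 and Grm2 had log2 differences of -0.32 and -0.04 with overlapping groups. The metabotropic genes summed to between 54.2 and 60.2 CPM per kilobase in the wild types and to between 39.5 and 42.5 in the knockouts.

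No AMPA, kainate, delta, Neto or TARP gene was called at P0. The AMPA receptor genes Gria1, Gria2 and Gria4 had log2 differences of 0.04, -0.07 and -0.03. Gria3 was at 79.8, 65.7 and 71.5 CPM in the wild types and 62.6, 57.3 and 55.9 CPM in the knockouts (log2 difference -0.31, adjusted p 0.123), and its groups did not overlap. Among the kainate receptor genes, Grik1 was at 42.9, 41.9 and 36.6 against 30.1, 31.0 and 33.3 CPM (log2 difference -0.37, adjusted p 0.0855). Grik3, the GluK3 subunit of low glutamate sensitivity, was the only member above 0 at an unadjusted p under 0.05, with a log2 difference of 0.19 and an adjusted p of 0.279. Grid1, whose product binds cerebellins across the synapse, was at -0.21 (adjusted p 0.296). Neto1, an auxiliary subunit of kainate receptors, was at 147, 122 and 112 against 110.3, 108 and 82.0 CPM (adjusted p 0.236), and these groups were separate by a narrow margin. Of the 6 TARP genes, 5 were below 0, Cacng3 furthest at -0.30 (adjusted p 0.244), with Cacng2 (stargazin, the founding TARP) at -0.12, Cacng5 at -0.14, Cacng4 at -0.05, Cacng8 at -0.03 and Cacng7 at 0.05. Of the remaining members, Grik2 was at -0.11, Grik4 at -0.04, Grik5 at 0.12 and Neto2, which modulates kainate receptors, at -0.07.

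**Figure D1:**
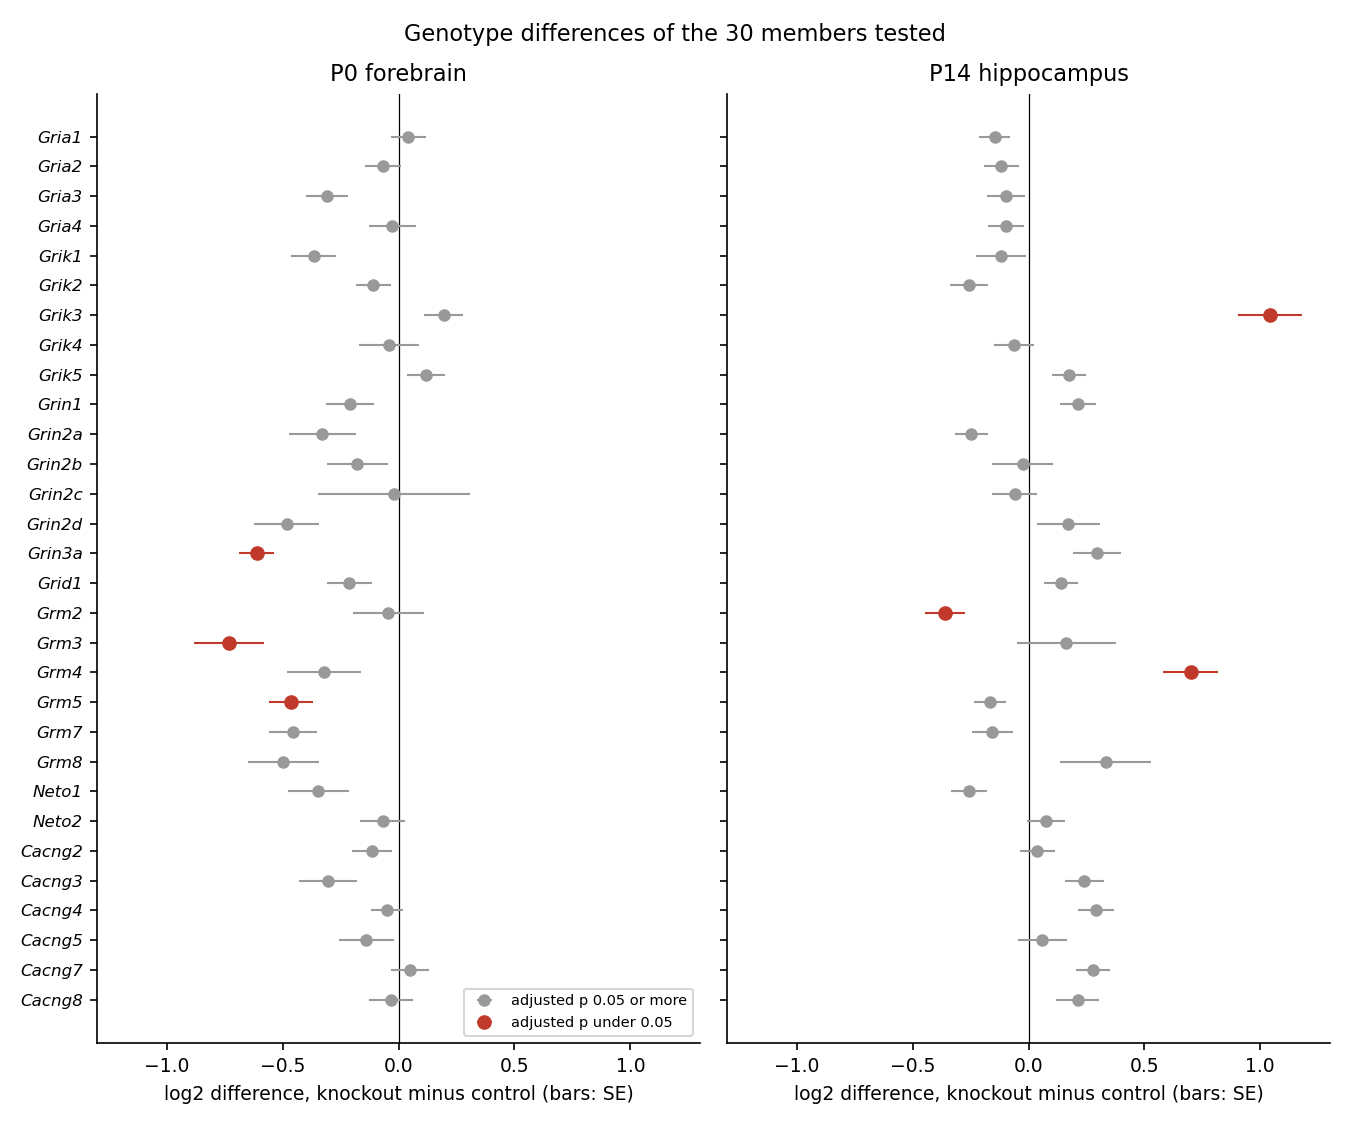
Log2 differences of the 30 tested genes, knockout minus control, at P0 (left) and P14 (right), each point with a bar of 1 SE. Red points have an adjusted p under 0.05: Grin3a, Grm5 and Grm3 lie below 0 at P0, and at P14 Grik3 and Grm4 lie above 0 and Grm2 below it.

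The P0 calls rested on few libraries. Grin3a was not past the threshold without wild type 1, wild type 2 or knockout 1, Grm5 not without any of these 3 or knockout 2, and Grm3 not without any wild type or knockout 1, with adjusted p up to 0.0811, 0.254 and 0.248. Over the 6 fits that each left out 1 library the log2 differences were all below 0, within -0.65 to -0.58 for Grin3a, -0.51 to -0.38 for Grm5 and -0.90 to -0.55 for Grm3. The share of all genes called was 0.0121% without wild type 1, 0.00605% without wild type 2 and 0.00604% without knockout 1. It was 0.0906% without knockout 2 and 1.51% without wild type 3. Without knockout 3, 8 members were called, 7 lower and 1 (Grik3) higher, against 4.69% of all genes. Grm5 also missed the threshold with non-robust fitting (adjusted p 0.0657), and Grm3 with RLE size factors, non-robust fitting or 1 fit on all 12 libraries (adjusted p up to 0.133).

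Library numbers in the labels fall into 2 series at P0, with 2 knockouts and 2 wild types in the first and 1 of each in the second. Within the first series, 25 of 30 members were lower in the knockouts, and 12 were called lower and 1, Grik3, higher, against 12.9% of all genes called. In the single pair of the second series, 19 of 30 members were lower, where 49.4% of all genes were, with no replicate check. That all-gene share used counts scaled to library totals alone, over genes above a count limit, while the members used TMM-scaled CPM. The share of all genes lower in the first series was not taken. With the series as a term in the fit, the 3 called genes kept their calls (adjusted p 0.00126 for Grin3a and 0.00790 for Grm5 and Grm3), and Grm7 (0.0247) and Neto1 (0.0324) were called lower as well, against 2.87% of all genes. The 3 called genes were lower in both, with log2 differences of -0.66 and -0.48 for Grin3a, -0.42 and -0.53 for Grm5, and -0.60 and -1.03 for Grm3, first and second series in turn. Several others were not: Grm4 was at -0.60 in the first series and 0.22 in the second, Cacng3 at -0.50 and 0.06, and Grin1 at -0.34 and 0.07.

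Markers of other cell types moved in the same P0 libraries. The summed level of 8 astrocyte markers was 575 to 727 CPM in the wild types and 535 to 572 CPM in the knockouts, with 6 of 8 below 0 and Aqp4 called. All 6 markers of oligodendrocyte precursors were below 0 (sums of 223 to 248 against 194 to 204 CPM), and so were all 6 microglial markers, P2ry12 called (53.2 to 69.2 against 47.2 to 52.5 CPM). The 4 forebrain patterning genes were all above 0 and 1 was called, with sums of 228 to 282 CPM in the wild types and 325 to 347 CPM in the knockouts. The 6 choroid plexus markers summed to 652 to 839 against 893 to 969.6 CPM, with 4 above 0, 2 below 0 and none called. Sums of some neuronal lists were lower too. All 7 dentate granule markers tested were below 0, with Calb1 called and sums of 122 to 136 against 100.2 to 108 CPM. The 8 striatal markers summed to 305 to 348 against 289.5 to 298 CPM, but 5 were below 0, 3 were above 0 and none was called. The sums of the CA pyramidal, interneuron, Cajal-Retzius, neural progenitor, oligodendrocyte, endothelial, ependymal and thalamic lists overlapped between the groups. Grm3 and Grm5 are made by astrocytes as well as neurons, and the part of these shifts in the members' differences was not tested.

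**Figure D2:**
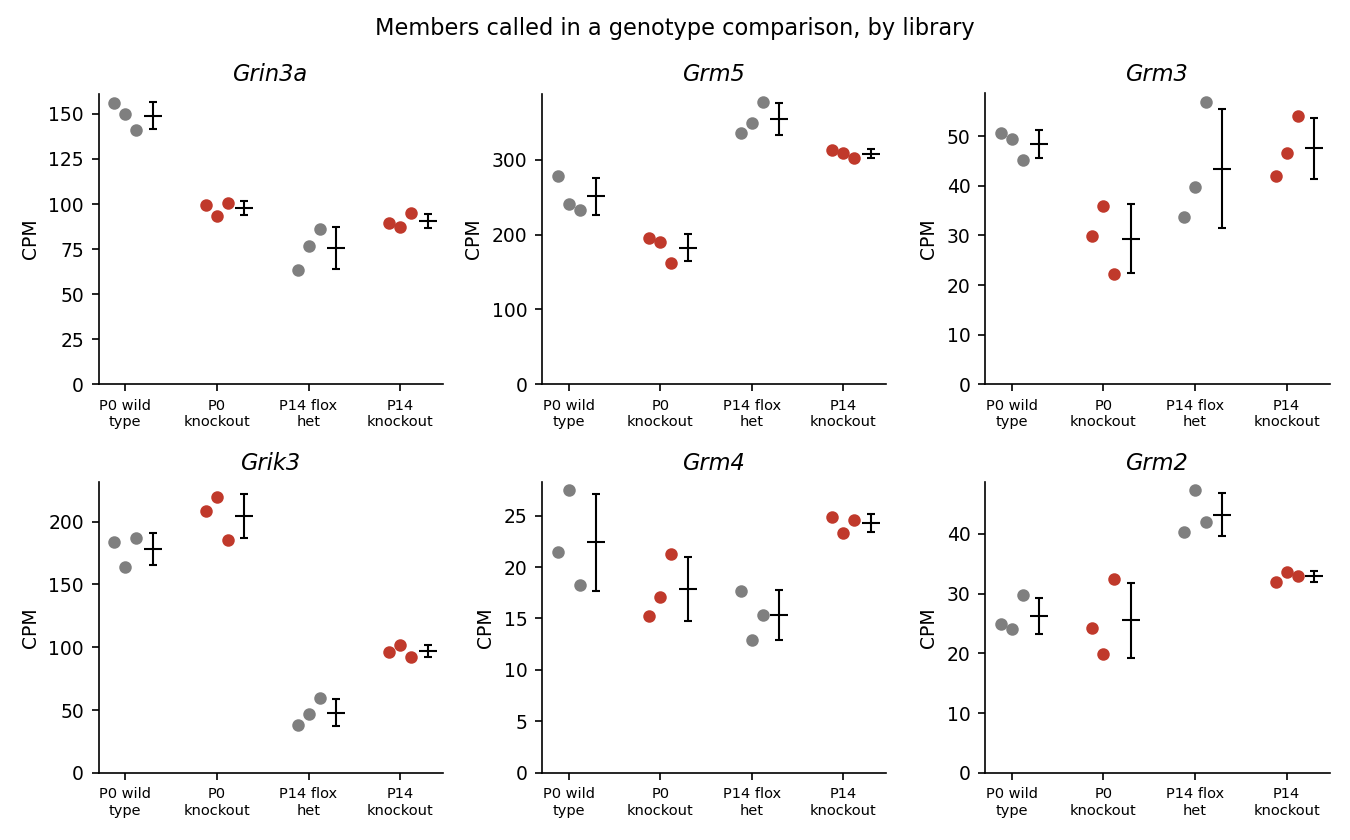
CPM of the 6 members called in a genotype comparison, 1 point per library, with the group mean and SD as a bar beside the points (3 libraries per group). Grin3a, Grm5 and Grm3 knockouts lie below the wild types at P0, Grik3 and Grm4 knockouts above the heterozygous controls at P14, and Grm2 knockouts below them at P14.

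In the P14 hippocampus, 2 of 30 members were called higher in the knockouts, Grik3 and Grm4, and 1 lower, Grm2, against 1.99% of all 17208 genes called, 1.21% higher and 0.773% lower. The members were split around 0, with 16 above and 14 below, a median log2 difference of 0.05 and a range from -0.36 to 1.04, and 48.5% of all genes lay above 0. At an unadjusted p under 0.05 there were 9 members higher and 6 lower, against 7.84% and 7.40% of all genes. The groups did not overlap for 16 members, against 20.1% of all genes.

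Grik3 showed the largest difference of any member in either genotype comparison. Grik3 (ENSMUSG00000001985, chromosome 4, 125490700 to 125714173, plus strand), whose GC-rich promoter is printed above, was at 38.0, 46.5 and 59.5 CPM in the controls and at 96.3, 102 and 92.3 CPM in the knockouts. All knockouts lay far above all controls, and the controls were more scattered. The log2 difference was 1.04 (SE 0.14, adjusted p 0.00586), and it was called in 6 of 6 fits that left out 1 library and in 9 of 9 other settings. No other kainate receptor gene was called. Grik2, the GluK2 subunit abundant at hippocampal mossy fibre synapses, was at 95.3, 104 and 102 CPM in the controls and 78.8, 92.2 and 75.03 CPM in the knockouts (log2 difference -0.26, adjusted p 0.128). Grik5, a high-affinity partner subunit, was at 0.18 (adjusted p 0.263), and Grik1 and Grik4 at -0.12 and -0.06 with overlapping groups.

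Grm4 encodes the group III presynaptic receptor mGluR4. Grm4 (ENSMUSG00000063239, chromosome 17, 27422387 to 27521403, minus strand) was at 17.7, 12.9 and 15.3 CPM in the controls and at 24.9, 23.3 and 24.6 CPM in the knockouts, which were close together and above every control. The log2 difference was 0.70 (SE 0.12, adjusted p 0.00637), and it too was called in 6 of 6 fits without 1 library and in 9 of 9 other settings. Grm2 encodes mGluR2, a group II receptor of presynaptic terminals, among them those of dentate granule cells. Grm2 (ENSMUSG00000023192, chromosome 9, 106643095 to 106656082, minus strand) was at 40.3, 47.3 and 42.1 CPM in the controls and at 31.95, 33.7 and 33.0 CPM in the knockouts, again without overlap. Its log2 difference of -0.36 (SE 0.09, adjusted p 0.0469) was near the threshold. It was called in 1 of 6 fits without 1 library, the one without control 3, with log2 differences from -0.41 to -0.29 and adjusted p up to 0.279, and in 5 of 9 other settings, with adjusted p up to 0.145 in the rest (upper-quartile scaling, non-robust fitting, the larger strand column and 1 fit on all 12 libraries). Grm2 overlaps the antisense gene Gm28111 over 470 bp of exon, which these counts cannot separate. Grm5 was at -0.17 (adjusted p 0.272), Grm7 at -0.16, Grm3 at 0.16 and Grm8 at 0.33 (adjusted p 0.449).

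The AMPA receptor genes and the TARPs lay on opposite sides of 0 at P14, though none was called. All 4 AMPA receptor genes were below 0, from -0.15 for Gria1 to -0.10 for Gria4. Their sum was 253 to 261 CPM per kilobase in the controls and 209.9 to 242 in the knockouts. All 6 TARP genes were above 0, with a median log2 difference of 0.23, and their sum was 136 to 146 CPM per kilobase in the controls and 152 to 169 in the knockouts. Cacng4, a type I TARP, was at 58.5, 60.6 and 58.7 against 70.6, 67.4 and 74.2 CPM (log2 difference 0.29, SE 0.08, adjusted p 0.0693). Cacng7, a type II TARP, was at 128, 120.1 and 116 against 146, 155 and 131 CPM (log2 difference 0.28, SE 0.07, adjusted p 0.0704). Both had separated groups, as had Cacng3 (0.24, adjusted p 0.179), while Cacng8, the main hippocampal TARP, had overlapping groups (0.21, adjusted p 0.291). Cacng2 and Cacng5 were at 0.04 and 0.06.

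Among the NMDA receptor genes at P14, Grin2a was at 286, 306 and 312 CPM in the controls and 254, 259.8 and 231 CPM in the knockouts (log2 difference -0.25, SE 0.07, adjusted p 0.0862). Its groups did not overlap. Grin3a, called lower at P0, was at 63.4, 76.8 and 86.3 CPM in the controls and 89.5, 87.1 and 95.03 CPM in the knockouts (log2 difference 0.30, SE 0.10, adjusted p 0.179). The P14 knockouts of Grin3a were thus just above their highest control. Grin1 was at 0.21 (adjusted p 0.208), and Grin2b, Grin2c and Grin2d at -0.03, -0.06 and 0.17, all with overlapping groups. Neto1 was at 334, 289 and 319 against 246, 282 and 241 CPM (log2 difference -0.26, adjusted p 0.110), and Neto2 was at 0.08. Grid1 was at 0.14 (adjusted p 0.376).

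One P14 library weighed on these counts. Without control 3, 12 members were called, 9 higher and 3 lower, where 10.3% of all genes were called. Grin3a was then at 0.41 (adjusted p 0.00515) and Grik3 at 1.23. Control 3 had the highest choroid plexus level of the P14 libraries, at a marker sum of 2577 CPM. Control 1 had the lowest, at 149 CPM, with the knockouts between 1329 and 2039 CPM. None of the 6 choroid plexus markers was called at P14, and any part of this tissue in the calls was not tested.

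The P14 groups also differed in region and cell type markers. All 8 dentate granule markers were below 0 in the knockouts and 6 were called, with summed levels of 442 to 489 CPM in the controls and 272 to 303 CPM in the knockouts. All 8 striatal projection neuron markers were above 0, with Drd1 called at 1.46, and their sum was 142 to 181 CPM in the controls and 185 to 299.8 CPM in the knockouts. Ependymal markers summed to 22.2 to 31.8 against 38.1 to 44.9 CPM. The 8 CA pyramidal markers summed to 1143 to 1238 CPM in the controls and 973 to 1137 CPM in the knockouts, with Iyd and Bok called lower. Cajal-Retzius marker sums were lower without overlap (252 to 283 against 182 to 199.7 CPM, Ndnf and Calb2 called lower). So were endothelial sums (197 to 207 against 165 to 184 CPM), with no marker called. Thalamic sums were also lower without overlap (173 to 213 against 152 to 169.9 CPM). Of the 5 thalamic genes tested, 4 were below 0 and Slc17a6 was at 0.42. The 1 called lower, Calb2, is also in the Cajal-Retzius list, so these lists are not separate. Sums of oligodendrocyte precursor markers were higher by a narrow margin (442 to 475 against 478 to 522 CPM), with 5 above 0, 1 below 0 and none called. The sums of the interneuron, neural progenitor, astrocyte, oligodendrocyte, microglial and forebrain lists overlapped, although Gad1 was called lower. The part of these shifts in the differences of Grik3, Grm4, Grm2 and the other members was not tested.

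**Figure D3:**
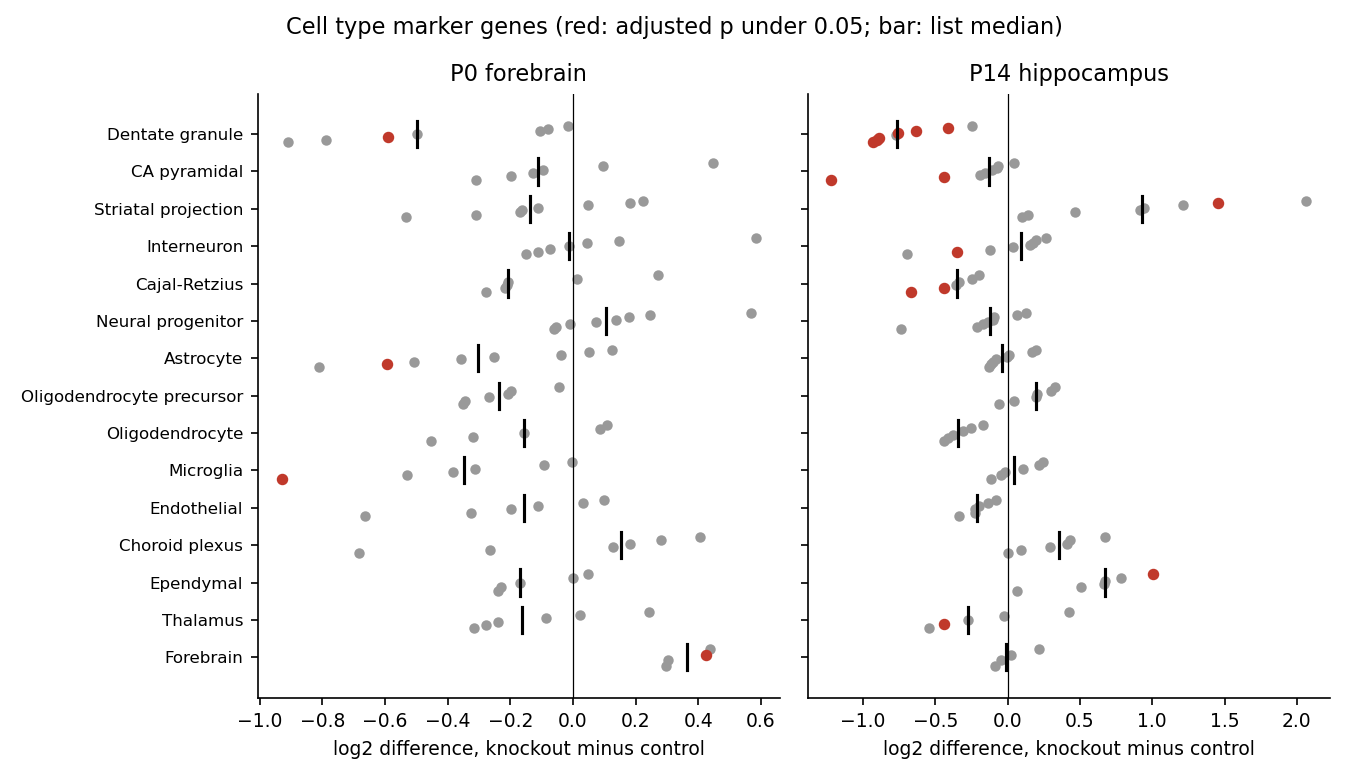
Log2 differences, knockout minus control, of cell type and region markers at P0 (left) and P14 (right), 1 point per gene, with the list median as a bar and red for an adjusted p under 0.05. At P0 the 4 forebrain genes lie above 0 and the oligodendrocyte precursor markers below it. At P14 the 8 dentate granule markers lie below 0 and the 8 striatal markers above it.

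The difference between the genotype effects, P14 minus P0, was tested over all 12 libraries. It was called for 3 of 30 members, all higher, against 1.79% of all 18189 genes called, 1.37% called higher and 0.423% lower. Grin3a had the smallest adjusted p, with a difference of 0.89 (SE 0.13, adjusted p 0.000699), between -0.61 at P0 and 0.30 at P14. For Grm4 it was 1.00 (SE 0.21, adjusted p 0.0172), between -0.32 and 0.70. For Grik3 it was 0.83 (SE 0.16, adjusted p 0.0137), between 0.19 and 1.04, both above 0. Grin3a was called in 12 of 12 fits without 1 library, Grik3 in 10 and Grm4 in 8. Grik3 was lost without P0 wild type 1 or P14 control 2, and Grm4 without P0 wild type 2, P0 knockout 1 or 2, or P14 control 2, with adjusted p up to 0.0528 and 0.0621 and log2 differences no lower than 0.70 and 0.83. Of the 30 members 23 had an interaction above 0, against 48.7% of all genes, and at an unadjusted p under 0.05 there were 11, all higher, where 8.42% of all genes were higher and 6.90% lower, 15.3% in all. By sign alone, 13 members were below 0 in both contexts, 13 were below 0 at P0 and above 0 at P14, 3 were above 0 in both, and 1 was above 0 at P0 only. Because the contexts differ in age, tissue, Cre line, controls and library numbers, an interaction cannot be assigned to any of these.

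Per kilobase of exon in the P0 wild types, the most abundant members were Cacng4 at 68.2 ± 2.85 CPM per kilobase, Cacng7 at 52.1 ± 2.07 and Neto2 at 47.1 ± 2.50 (SD, n = 3 each). Gria2, the subunit that makes AMPA receptors impermeable to calcium, followed at 39.9 ± 1.27, with Grik5 at 38.0 ± 2.18 and Gria1 at 36.1 ± 1.62. The libraries of Grik5 overlapped those of Gria2 and Gria1, so the order of these neighbours is not beyond their spread. The lowest tested members were Grm8 at 1.10 ± 0.06, Grin2a at 0.635 ± 0.032 and Grin2c at 0.394 ± 0.106. Lengths are unions of all annotated exons, so genes with long untranslated ends read lower on this scale.

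In the P14 heterozygous controls Gria1 led at 158 ± 2.23 CPM per kilobase, then Gria2 at 66.2 ± 1.71 and Grik5 at 62.3 ± 3.06. Gria2 and Grik5 overlapped, and so did Cacng8 at 38.6 ± 5.19, Neto1 at 37.6 ± 2.75 and Grm5 at 34.6 ± 2.10. Grik1, Grm4 and Grm8 were lowest, at 3.21 ± 0.06, 2.56 ± 0.40 and 0.474 ± 0.092. Grik3 and Grm4, called higher in the P14 knockouts, were thus minor transcripts in the P14 control hippocampus, and Grik3 at 5.35 ± 1.21 CPM per kilobase was well below its P0 forebrain level of 19.9 ± 1.40.

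Between the control groups, 28 of 30 members were called, 18 higher and 10 lower in the P14 hippocampus, where 64.0% of all genes were called, 32.3% higher and 31.7% lower. Groups did not overlap for 27 of 30, against 67.6%. Cacng7 and Grm3 were not called. The largest rises were those of Grin2c, the GluN2C subunit, and Grin2a, which did not differ in size beyond their errors. Grin2c went from 1.49, 2.55 and 1.92 CPM to 56.3, 55.6 and 52.2 CPM (log2 difference 4.73, SE 0.18). Grin2a went from 11.2, 10.98 and 12.04 CPM to 286, 306 and 312 CPM (4.67, SE 0.10). Both were near the bottom of the P0 levels and had separated groups by a wide margin. Gria1 rose by 2.08 (SE 0.08), from 228, 209 and 217 CPM to 963, 958 and 938 CPM, Grin1 by 1.96 (SE 0.10) and Grik4, a high-affinity kainate subunit, by 1.80 (SE 0.11). The largest falls were those of Cacng4, from 244, 254 and 234 CPM to 58.5, 60.6 and 58.7 CPM (-2.09, SE 0.08), and of Grik3, from 184, 164 and 187 CPM to 38.0, 46.5 and 59.5 CPM (-1.94, SE 0.12). Neto2 followed at -1.76, Grm8 at -1.26 and Grin3a at -1.03. The adjusted p was under 2e-06 for each of these 10 genes, the highest being 1.99e-06 for Grm8.

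**Figure D4:**
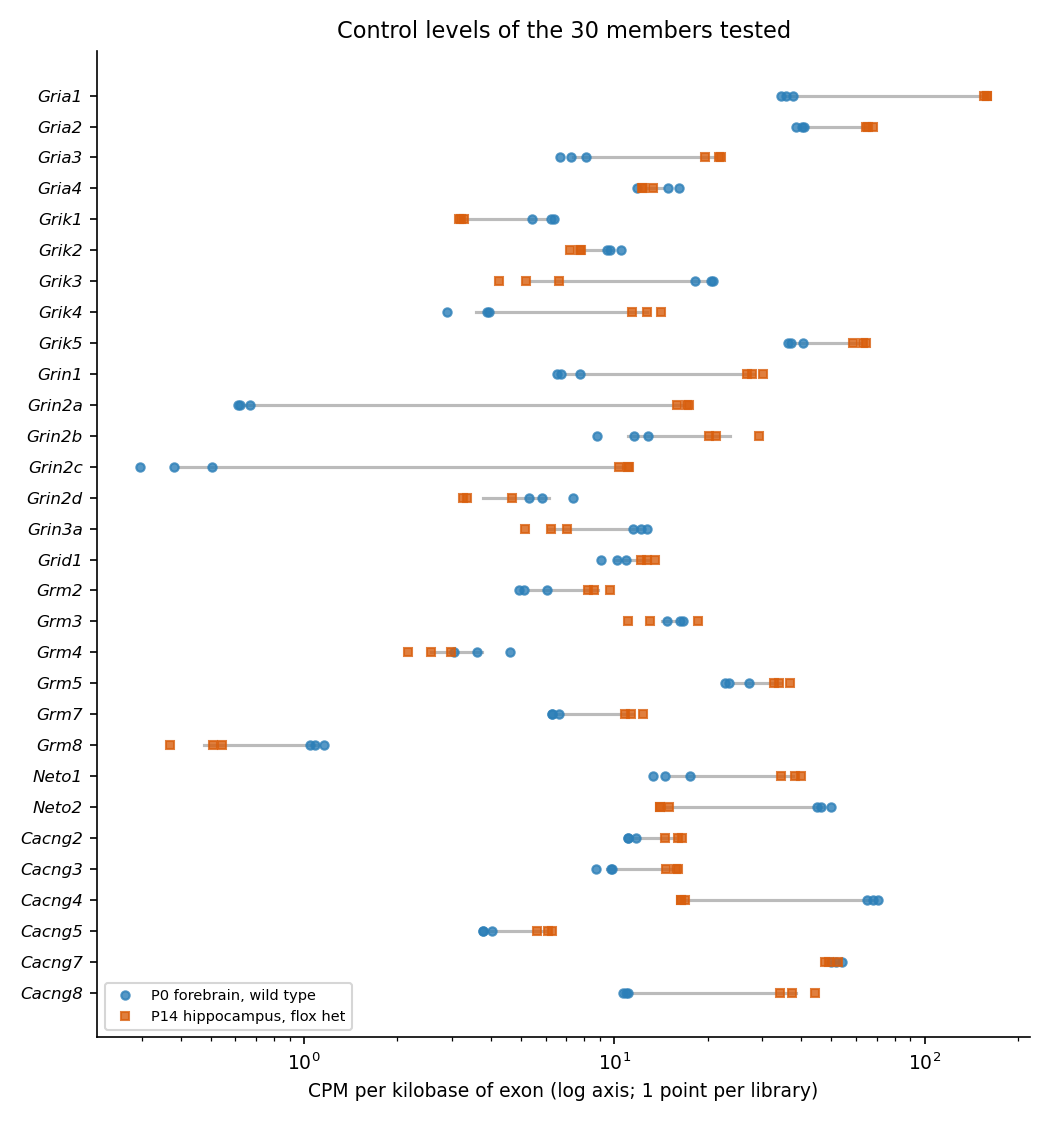
Levels of the 30 tested genes in the control groups, in CPM per kilobase of exon on a log axis, 1 point per library, with a grey line joining the group means. Blue circles are P0 wild-type forebrain and orange squares P14 heterozygous hippocampus. Grin2a and Grin2c show the widest gaps, and Cacng4, Grik3 and Neto2 run the other way.

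Within the GluN2 genes, Grin2a made up 3.49 ± 0.29% of the summed CPM per kilobase in the P0 wild types and 3.36 ± 0.32% in the P0 knockouts (SD, n = 3, exact two-sided permutation p 0.7). At P14 its share was 31.4%, 32.4% and 28.2% in the controls and 26.8%, 27.0% and 28.1% in the knockouts. The groups were next to each other without overlap, and the difference of -3.41 percentage points had an exact permutation p of 0.1, the smallest that 3 against 3 allows, and 0.4 after adjustment over the 4 shares tested. Gria2 made up 40.9 ± 0.68% of the AMPA receptor genes in the P0 wild types and 39.97 ± 1.07% in the knockouts (exact permutation p 0.2). At P14 it was 25.7 ± 0.65% in the controls and 25.9 ± 0.79% in the knockouts (exact permutation p 0.5).

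**Figure D5:**
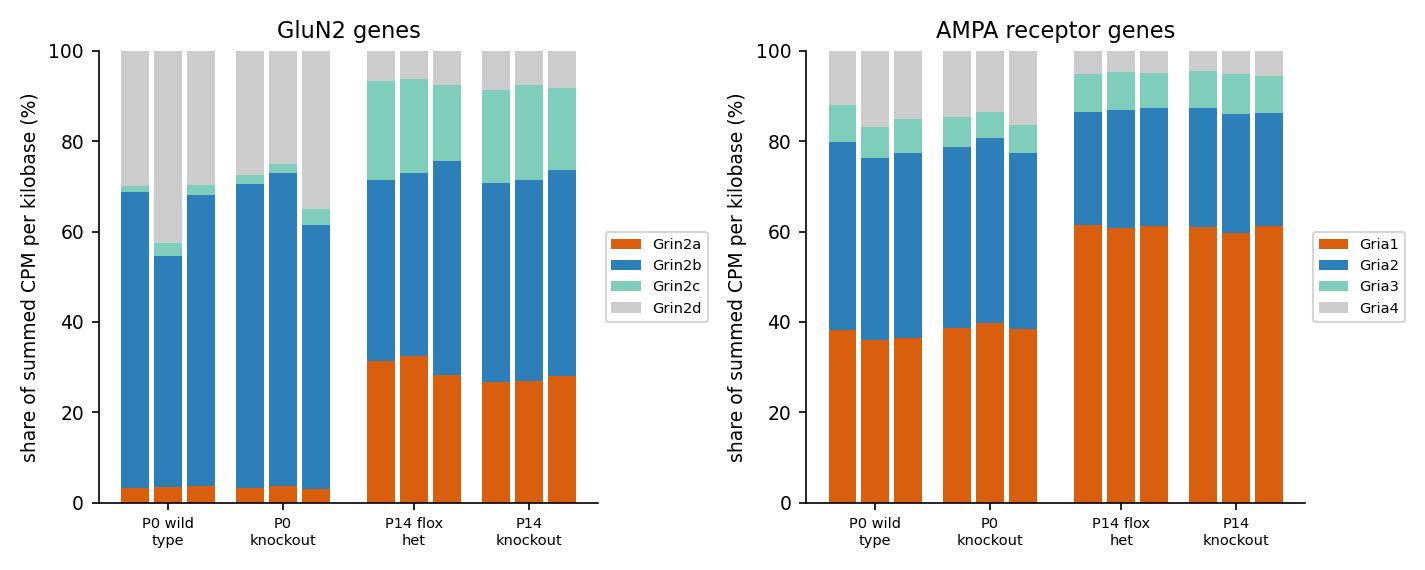
Shares of the GluN2 genes (left) and AMPA receptor genes (right) in their summed CPM per kilobase, 1 stacked bar per library. The Grin2a share is near 3% in all P0 libraries and between 26.8% and 32.4% at P14, and the Gria2 share is lower at P14 than at P0 in every library.

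The wider glutamate synapse was described by 49 further genes, all tested in every comparison. At P0, 1 of the 49 was called, where 0.909% of all genes were, so this count is near the background. It was Slc17a7, the vesicular glutamate transporter of cortical and hippocampal neurons, at 74.8, 60.3 and 79.4 CPM in the wild types and 45.4, 48.7 and 54.4 CPM in the knockouts (log2 difference -0.54, SE 0.11, adjusted p 0.0368). In all, 37 of the 49 lay below 0 at P0, with a median of -0.12, while 49.9% of all genes lay above 0. At P14, 4 were called, against 1.99% of all genes. Of these, 3 were higher: Gsg1l, an AMPA receptor auxiliary subunit (0.70, adjusted p 0.00259), Olfm2, a secreted AMPA receptor partner (0.33, adjusted p 0.0392), and Dlg4, the scaffold PSD-95 (0.27, adjusted p 0.0490). Slc17a8, a further vesicular transporter, was called lower (-0.84, adjusted p 0.0176). The interaction was called for Slc17a7 (0.56), Gsg1l (0.81) and the scaffold gene Shank3 (0.56), all higher, against 1.79% of all genes. Of the 20 scaffold and trafficking genes, 14 were below 0 at P0 and 16 above 0 at P14, where 48.5% of all genes lay above 0.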

How the data were processed

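The authors deposited 1 table of raw gene counts for each library. Per the submitters' processing notes, STAR 2.7.5a and edgeR 3.12 were used on mm10/GRCm38, and the file names give annotation release 102. The unstranded count column was used. Symbols and exon lengths came from GENCODE vM21 (55141 and 55227 of 55487 identifiers). Each context was tested alone with edgeR 4.0.16 (filterByExpr, TMM, robust glmQLFit and glmQLFTest, Benjamini-Hochberg adjustment), and the interaction and control comparison on all 12 libraries. CPM use TMM factors over all 12 libraries. The SE is the log2 difference over the square root of F. The test was checked on simulated data. Replicate pairs differed beyond sampling noise. The members and lists were chosen with earlier results of these data known. All members are accounted for. Those called in a genotype or interaction test are given in every library, then those at an unadjusted p under 0.05, and the 5 largest rises and falls between controls. Alternatives were DESeq2 1.42.0, other scalings and filters, the larger strand column, a GC offset and leaving out each library. Antisense exons overlap 11 members. Mice were individual animals, so p-values reflect variation between them. One marker list is not reported here.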

Additional observations from a re-analysis of the deposited data

Results flagged for a closer look

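The genotype effect differed between the contexts, by an interaction test over all 12 libraries, for 3 members. The effect at P14 minus that at P0 was 0.89 on the log2 scale for Grin3a, 0.83 for Grik3 and 1.00 for Grm4. The contexts differ in age, tissue, Cre line, kind of control and library numbers, which cannot be told apart.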

How the results depend on the processing

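Over all genes, the 147 calls at P0 became 625 with low-count genes kept, 382 with DESeq2, 398 with a GC offset, 284 in 1 fit on all 12 libraries, 50 when fitting was non-robust, 465 with a term for the library number series and 2107 in the first series alone, and lay between 1 and 775 when 1 library was left out. The 3 members called at P0 became 5 with DESeq2, 7 without the filter and 1 (Grin3a) with non-robust fitting. They became 5 with the GC offset, 5 with the series term and 13 in the first series alone. When 1 library was left out, between 0 and 8 members were called. The count was 0 without wild type 1, wild type 2 or knockout 1, where 2, 1 and 1 of all genes were called. At P14, the 342 calls became 534 with DESeq2 and 814 without the filter, and 104 to 1808 without 1 library, the highest without control 3. The 3 members called there became 6 with DESeq2, 6 without the filter, and 2 to 12 without 1 library. For the interaction, the 326 calls became 531 with DESeq2, 646 without the filter, 205 with the larger strand column, and 125 to 905 without 1 library. The 3 members called became 5 with DESeq2, 6 without the filter, and 1 (Grin3a, without P14 control 2) to 5 without 1 library. The cause of these changes was not tested. The control comparison kept 27 to 29 members called. For the members at an unadjusted p under 0.05 in a comparison, 1139 values under the alternatives kept their direction and side of the threshold. A call was lost in 40 values and gained in 47, and none turned direction. These values take in the control comparison with its 28 called members, so they do not measure the genotype calls alone. The single pair of the second P0 series was not among the alternatives. In that pair Grik3 was at -0.01, against 0.31 in the first series. Members nearer 0 could turn, as Gria2 (0.01), Neto2 (0.04) and Cacng7 (-0.05) did in the first P0 series alone. The knockout minus control differences in the Grin2a and Gria2 shares moved by less than 1 SD, taken as the larger group SD. The shares themselves depend on the length correction and were not compared between settings. No paired analysis was possible because replicate numbers were given in accession order and no label ties a knockout to a control. At these depths Grin3b and Grm6 had too few counts to test.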
